A study of Mus musculus with 15 samples.

Results

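A group of 10 genes of T cell costimulation and of the immune checkpoints was followed through macrophage polarization: the B7 family ligands Cd80, Cd86, Icosl and Cd276, the PD-1 ligands Cd274 (PD-L1) and Pdcd1lg2 (PD-L2), the receptors Cd40, Cd28 and Havcr2 (TIM-3), and the galectin Lgals9. Each gene was read from the probe set that the array annotation gives to that gene alone, and where several did so, from the one with the highest mean over all 15 arrays. The 10 genes were among 18193 with such a probe set, and all 10 were among the 13703 that passed a filter on low values and were tested. They carry 18 probe sets between them, and 5 of the 10 genes have more than 1. Cd80 and Cd86 lie on chromosome 16, Havcr2 and Lgals9 on 11, Cd274 and Pdcd1lg2 on 19, and Cd28, Cd40, Cd276 and Icosl on 1, 2, 9 and 10.

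Macrophages were grown from mouse bone marrow for 7 days with the macrophage growth factor M-CSF, and 3 samples in each of 5 groups were read on 1 array each. M1 cells received E. coli LPS with interferon-gamma (INF-g in the labels). M2+nutlin-3a cells received IL4, IL13 and nutlin-3a, which releases p53 from MDM2, and M2+10058F4 cells received IL4, IL13 and the MYC inhibitor 10058F4. M2 cells received IL4 and IL13 alone, and M0 cells were not treated. The sources used here do not give the strain, sex or age of the mice, or at what dose, for how long and in what vehicle the agents were applied. The samples are labelled biological replicates with no word on separate mice or dishes, and the p-values therefore take in only the spread among these samples, which may be technical.

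T cells need a second signal besides antigen, and macrophages provide it through CD80 and CD86, which bind CD28 on T cells, or withhold it when the same ligands are taken by CTLA-4. PD-L1 and PD-L2 bind PD-1 on T cells and restrain them, while CD40 takes the opposite route, receiving CD40 ligand from T cells and activating the macrophage. TIM-3 is an inhibitory receptor of T cells and myeloid cells, and galectin-9 is one of its proposed ligands. In macrophages PD-L1 is known as an interferon-gamma response gene and PD-L2 as an IL4 response gene.

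Cd274 and Pdcd1lg2 are neighbouring genes on chromosome 19, and each is the next protein-coding gene to the other in the RefSeq table of GRCm38.p6. The stretches of 250 bases before their start sites are printed because these neighbours differed in which stimulus gave the higher level. That of Lgals9 is added because it, like Cd274, was highest in M1. Icosl was also highest in M1 and has a motif match, but its stretch is not printed. Capitals mark a match to a searched motif, all sequences run 5′ to 3′ on the gene's strand, and they are RefSeq's for build GRCm38.p6: Pdcd1lg2 at chr19:29410669-29410918 (plus strand), Cd274 at chr19:29367188-29367437 (plus strand) and Lgals9 at chr11:78984925-78985174 (minus strand).
Pdcd1lg2: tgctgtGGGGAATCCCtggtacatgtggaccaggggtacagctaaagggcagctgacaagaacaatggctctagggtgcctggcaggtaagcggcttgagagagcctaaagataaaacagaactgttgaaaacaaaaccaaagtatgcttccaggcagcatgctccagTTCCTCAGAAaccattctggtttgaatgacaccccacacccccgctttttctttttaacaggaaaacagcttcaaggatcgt
Cd274: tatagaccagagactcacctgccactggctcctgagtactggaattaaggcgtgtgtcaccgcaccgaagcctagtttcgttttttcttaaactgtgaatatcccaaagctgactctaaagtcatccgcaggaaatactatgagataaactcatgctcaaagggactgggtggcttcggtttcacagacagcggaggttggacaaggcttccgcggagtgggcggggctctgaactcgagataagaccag
Lgals9: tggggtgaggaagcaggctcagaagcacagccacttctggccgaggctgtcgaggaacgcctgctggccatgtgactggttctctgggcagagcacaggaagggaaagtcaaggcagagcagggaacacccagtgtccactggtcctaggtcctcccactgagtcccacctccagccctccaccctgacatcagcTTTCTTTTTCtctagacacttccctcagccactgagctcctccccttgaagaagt

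The motifs were searched on both strands of these 250 bases in the 7 genes with an entry, which leaves out Cd86, Cd40 and Cd28, and in 32851 promoters in all. The Pdcd1lg2 stretch holds TTCCTCAGAA, a match to TTCNNNNGAA, the spacing that STAT6 prefers, at 82 to 73 bases before the start. That motif is its own reverse complement, so the match stands at the same place on both strands, and 5.85% of all promoters hold one. The same stretch holds GGGGAATCCC, a match to the kappa-B consensus of NF-kappa-B, at 244 to 235 bases before the start, and 7.25% of all promoters have a kappa-B match. Icosl has another kappa-B match, at 111 to 102 bases before its start. The Lgals9 stretch holds TTTCTTTTTC at 55 to 46 bases before the start, which on the other strand matches GAAANNGAAA, the core of interferon-stimulated response elements (2.98% of all promoters). No match in any of the 7 was found to CACGTG (the E-box that MYC and MAX bind, 6.02% of all promoters) or the p53 half-site consensus (7.13%). The searched motifs do not overlap each other in the printed matches, a match is a description of letters, and a missing match says nothing about the factor.

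Levels are on the log2 scale of the authors' RMA values, so a difference of 1 is a 2-fold change. The filter asked for a value above the array's 40th percentile, which lay between 4.34 and 4.52, on at least 3 arrays. A gene was called where limma's adjusted p was under 0.05, errors of differences are standard errors (SE) of the fit, and errors of group means are SDs over n = 3 arrays. Having 3 arrays in a group limits the precision. Counts of calls in gene lists are to be read beside the share of all tested genes called. That share was 72.7% in M1 against M0, 31.0% in M2 against M0, and 15.4% with nutlin-3a and 20.9% with 10058F4 against M2. Where a mean lies under that percentile in one group, the difference is not an exact size; besides Cd28 in M1, this holds below for Cd24a in M1 (3.32), for Timd4 (4.11), Tnfrsf25 (4.12), Slamf1 (4.33), Ptgs2 (3.89), Ido1 (3.69) and Arg1 (3.56) in M0, and for Ptgs2 in M2+10058F4 (3.79). It holds too for the tested Cd80 probe sets other than the one used, in M2 and M2+10058F4 (4.28 to 4.35). A gene low elsewhere can pass the filter through a single group, and its call as higher there is then partly set by the filter. This may hold for Timd4 and Ido1, high in M1 and also under the percentile in M2 (4.05 and 3.94). Within groups, Pearson r between arrays was 0.989 to 0.997 over all probe sets, as a description.

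The macrophage label was checked against its markers. All 10 measured macrophage markers, among them Csf1r, Adgre1 and Cd68, lay above the percentile on every array, and their summed linear level was 49427 to 50664 in M1 arrays and 57389 to 59179 in M0 arrays. In M1 against M0, 4 of them were called higher and 4 lower, where 33.6% and 39.1% of all tested genes were. Of 9 measured T cell markers, 6 (Cd3e, Cd3d, Cd4, Cd8a, Zap70 and Lat) lay above it on all arrays of every group, and Cd3g, Cd2 and Cd5 did not in any group. Of 8 measured dendritic cell markers, 5 (Flt3, Zbtb46, Batf3, Siglech and Dpp4) lay above it on all arrays of every group, Ccr7 and Xcr1 did so in M1 alone, and Itgae in none. The 3′ level minus the 5′ level of control probe sets, which depends on RNA integrity, moved in opposite directions for 2 controls. For beta-actin it was lower in M1 (0.178 ± 0.0444) than in the other groups, with means of 0.351 to 0.489, and for Gapdh it was higher in M1 (-0.162 ± 0.0347) than in the others, with means of -0.283 to -0.272. Its part in the results was not tested.

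**Figure D1:**
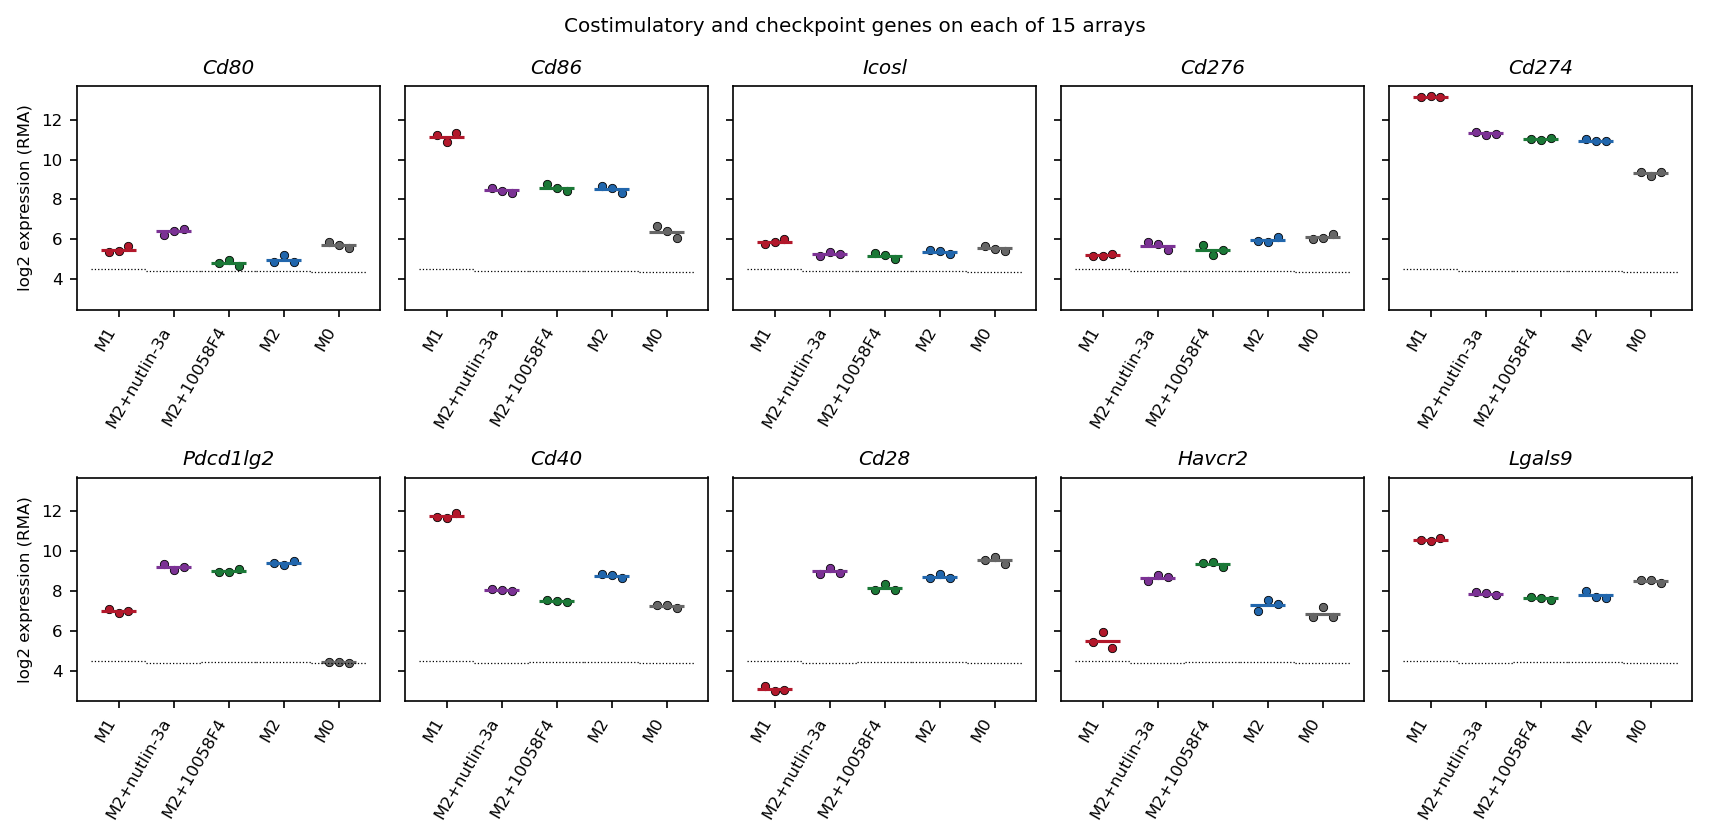
Log2 expression of the 10 genes on each of 15 arrays (points) with group means (bars), in the order M1, M2+nutlin-3a, M2+10058F4, M2 and M0; the dotted line is the mean value of the array's 40th percentile. Cd28 lies under that line in M1 alone, and Pdcd1lg2 lies on it in M0.

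The group means of the 10 genes spanned between 0.70 (Icosl) and 6.46 (Cd28) on the log2 scale, where the median over all tested genes was 0.56. Cd28, Pdcd1lg2, Cd86 and Cd40 had the widest spans, of 6.46, 4.97, 4.78 and 4.52, wider than those of 99.0% to 99.8% of tested genes. Cd274 and Havcr2 both spanned 3.85 and Lgals9 2.94. Cd80 spanned 1.57, Cd276 0.92 and Icosl 0.70, and the span of Icosl was wider than that of 60% of tested genes. M1 was the highest group for Cd86, Icosl, Cd274, Cd40 and Lgals9 and the lowest for Cd276, Cd28 and Havcr2. The remaining genes, Cd80 and Pdcd1lg2, were highest in M2+nutlin-3a and in M2.

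M1 cells were set against M0 cells for the response to LPS and interferon-gamma. In M1 cells 9 of the 10 genes were called, 6 higher (Cd86, Cd40, Cd274, Pdcd1lg2, Lgals9 and Icosl) and 3 lower (Cd28, Havcr2 and Cd276), where 72.7% of all tested genes were called, 33.6% higher and 39.1% lower (37.8% and 32.8% after repeated quantile normalization). At 2-fold or more, 5 genes were higher and 2 lower, against 5.71% and 12.7% of all tested genes. The median size of the difference, without its sign, was 2.33 over the 10 genes and 0.42 over all tested genes. For 9 of the 10 no M1 array overlapped an M0 array, against 71.3% of all tested genes.

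M2 cells were set against M0 cells for the response to IL4 and IL13, and share the M0 arrays with the M1 comparison. Of the 10 genes 7 were called, 4 higher in M2 (Pdcd1lg2, Cd86, Cd274 and Cd40) and 3 lower (Cd80, Cd28 and Lgals9), where 31.0% of all tested genes were called, 12.7% higher and 18.4% lower. A repeated quantile normalization moved the split over all genes to 15.3% higher and 14.4% lower and kept these 7 calls. The 4 higher genes all passed 2-fold, which 1.46% of all tested genes did in that direction, and no called gene fell by that much. Median size was 0.79 over the 10 genes and 0.17 over all tested genes. For 7 of the 10 the arrays did not overlap (47.2% of all tested genes).

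M1 cells set directly against M2 cells gave calls for all 10 genes, 6 higher and 4 lower in M1, where 64.7% of tested genes were called, 28.1% higher and 36.5% lower (33.8% and 32.6% after repeated quantile normalization). Pdcd1lg2 was the exception among the genes raised by both stimuli, being lower in M1 than in M2. At 2-fold or more 4 were higher and 3 lower, against 6.47% and 11.1% of all tested genes. The arrays of M1 and M2 did not overlap for any of the 10 (64.9% of all tested genes).

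**Figure D2:**
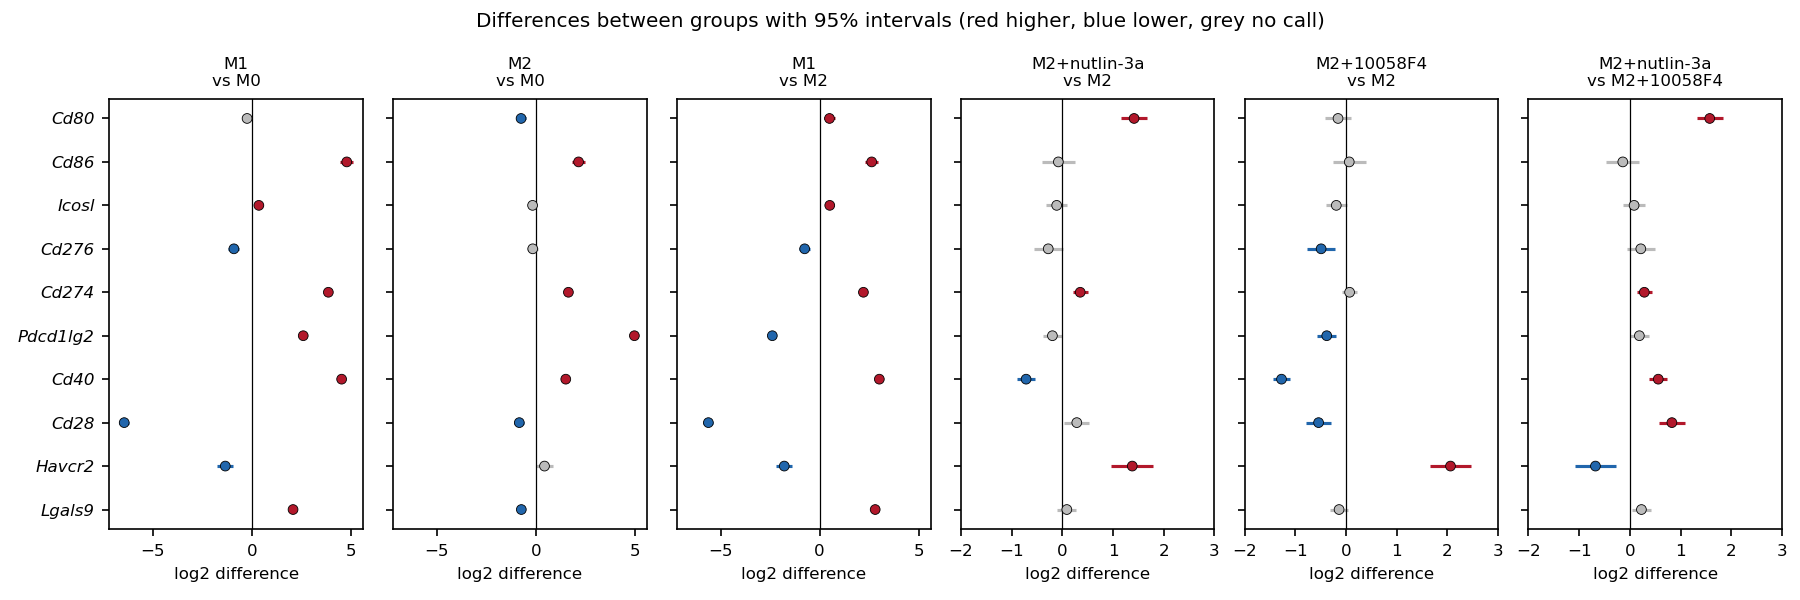
Log2 difference of each of the 10 genes in 6 comparisons with its 95% interval from the limma fit, red where called higher, blue where called lower and grey where no call was made; the 3 comparisons on the left share an axis, and the 3 on the right share a narrower one. Cd28 stands at -6.46 for M1 against M0, and Havcr2 at 2.06 for M2+10058F4 against M2.

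Cd86 and Cd80 bind the same T cell receptors, and their orders of the groups differed. Cd86 had log2 values of 11.25, 10.90 and 11.32 in M1, 8.59, 8.42 and 8.34 in M2+nutlin-3a, 8.78, 8.57 and 8.42 in M2+10058F4, 8.69, 8.58 and 8.32 in M2, and 6.64, 6.41 and 6.07 in M0. M1 stood above the 3 M2 groups, which overlapped each other, and M0 stood below them all. The level was 27.5-fold higher in M1 than in M0 (log2 difference 4.78, SE 0.15, adjusted p = 3.57e-12), 4.45-fold higher in M2 than in M0 (2.16, SE 0.15, adjusted p = 1.6e-07) and 6.17-fold higher in M1 than in M2 (2.63, SE 0.15, adjusted p = 1.56e-09). Neither agent gave a call: with nutlin-3a the difference from M2 was -0.08 with a 95% interval of -0.41 to 0.25 (adjusted p = 0.79), and with 10058F4 it was 0.06 with an interval of -0.27 to 0.39 (adjusted p = 0.831). The other Cd86 probe set gave smaller M1 differences, 3.81 from M0 and 1.41 from M2, and a larger one for M2 against M0 (2.41). Its differences from M2 were -0.38 with nutlin-3a (SE 0.16, adjusted p = 0.138) and -0.26 with 10058F4 (SE 0.16, adjusted p = 0.29), also without a call. In RNA from whole cultures, fewer cells of a type and less RNA per cell cannot be told apart.

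Cd80 was highest with nutlin-3a. It had log2 values of 5.34, 5.41 and 5.66 in M1, 6.23, 6.43 and 6.50 in M2+nutlin-3a, 4.83, 4.94 and 4.68 in M2+10058F4, 4.86, 5.19 and 4.86 in M2, and 5.87, 5.73 and 5.56 in M0. All 3 M2+nutlin-3a arrays lay above every other array, and the M2+10058F4 and M2 arrays, which overlapped, lay below the rest. The level was 2.67-fold higher in M2+nutlin-3a than in M2 (1.42, SE 0.12, adjusted p = 3.85e-06) and 2.98-fold higher than in M2+10058F4 (1.57, SE 0.12, adjusted p = 1.14e-06). Against M0, M2 cells were 1.68-fold lower (-0.75, SE 0.12, adjusted p = 2.94e-04), with -0.78 and -0.34 from the other tested probe sets, both called. M1 cells differed from M0 cells by -0.25 with an interval from -0.51 to 0.0063, which did not pass (adjusted p = 0.0727). That last difference depends on the probe set, since another Cd80 probe set gave 0.36 (SE 0.19, adjusted p = 0.104). M1 was 1.41-fold higher than M2 (0.50, SE 0.12, adjusted p = 0.00228), a call lost in the fit restricted to probe sets specific by suffix (0.23, adjusted p = 0.0869). That fit drops the suffix _a_at, which the probe set used carries, and keeps a Cd80 probe set of lower level. The other _a_at probe set of Cd80 gave 1.14 (SE 0.19, adjusted p = 9.92e-05). The rise with nutlin-3a was called in all 3 tested Cd80 probe sets, at 1.42, 2.11 and 0.93. With 10058F4 the difference from M2 was -0.16 (adjusted p = 0.403).

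**Figure D3:**
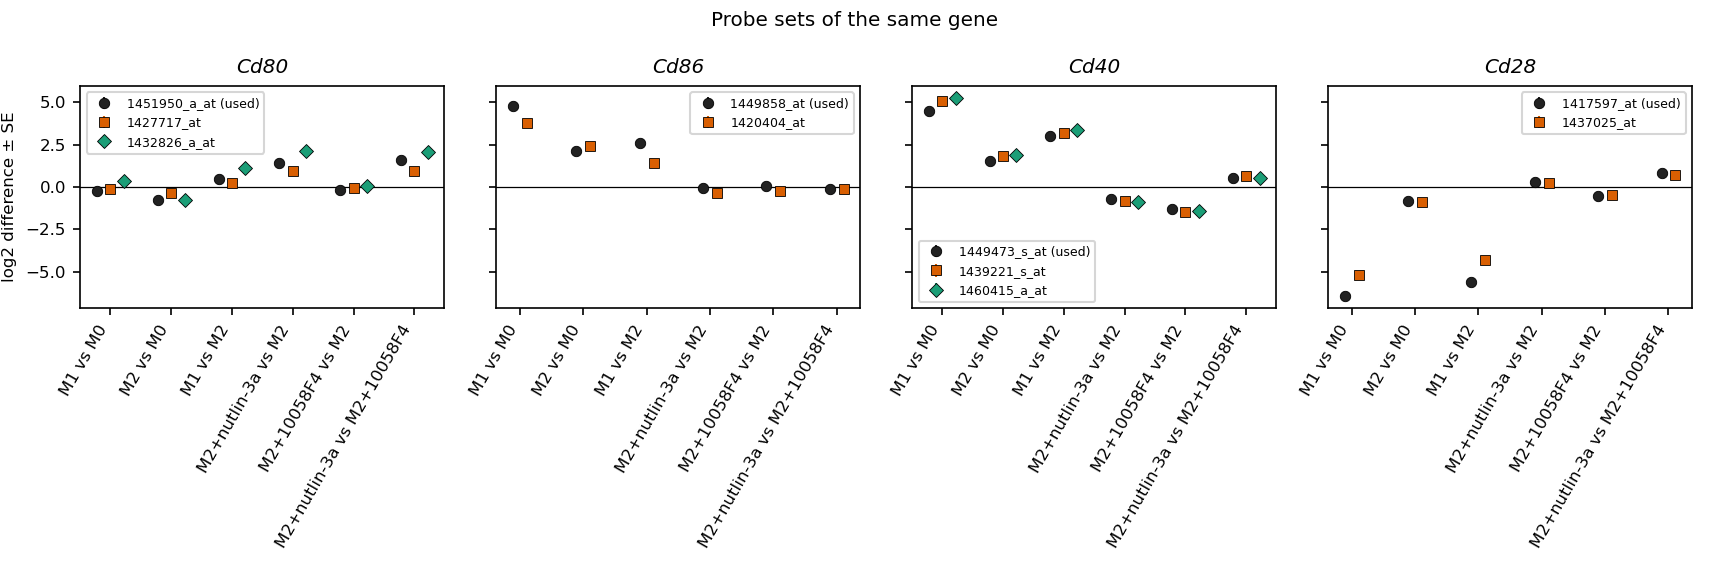
Log2 difference ± SE in 6 comparisons for each tested probe set of Cd80, Cd86, Cd40 and Cd28, the genes with more than 1 tested probe set; most error bars are smaller than the symbols. The Cd80 probe sets lie on either side of 0 for M1 against M0 and all above 0 for M2+nutlin-3a against M2.

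The other B7 relatives had the narrowest spans of the 10 genes. Icosl, the ligand of the T cell costimulator ICOS, had log2 values of 5.74, 5.87 and 6.03 in M1, against 5.66, 5.53 and 5.43 in M0, and was 1.27-fold higher in M1 (0.34, SE 0.10, adjusted p = 0.00595). Its means in the other groups were 5.26 ± 0.0939 in M2+nutlin-3a, 5.18 ± 0.144 in M2+10058F4 and 5.37 ± 0.103 in M2, and neither agent nor IL4 with IL13 gave a call. M1 arrays stood above those of all other groups, while each further neighbour in the order of means overlapped the next. Icosl was also 1.42-fold higher in M1 than in M2 (0.51, SE 0.10, adjusted p = 3.53e-04).

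Cd276, which encodes the B7 relative B7-H3, ran the other way in M1. Its log2 values were 5.18, 5.17 and 5.24 in M1, 5.85, 5.75 and 5.44 in M2+nutlin-3a, 5.73, 5.22 and 5.43 in M2+10058F4, 5.91, 5.84 and 6.11 in M2, and 5.99, 6.07 and 6.27 in M0. Ordered by mean, from M0 over M2, M2+nutlin-3a and M2+10058F4 to M1, each group overlapped the next, but M1 and M0 did not overlap. It was 1.89-fold lower in M1 than in M0 (-0.92, SE 0.13, adjusted p = 2.23e-05) and 1.69-fold lower in M1 than in M2 (-0.76, SE 0.13, adjusted p = 1.43e-04). M2+10058F4 cells were 1.41-fold lower than M2 cells (-0.49, SE 0.13, adjusted p = 0.0156), and this call was lost without M2 replicate 3 (adjusted p = 0.0735), M2+10058F4 replicate 2 (0.0787) or M2+10058F4 replicate 3 (0.0507). Nutlin-3a gave no call (-0.28, SE 0.13, adjusted p = 0.18).

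Among 12 further B7 and CD28 relatives 5 were tested, and Ctla4 and Pdcd1, the inhibitory receptors for the B7 and PD-1 ligands, were not, for low values. Vsir, which encodes the checkpoint protein VISTA, fell by 2.49 in M1 against M0 (SE 0.07, adjusted p = 1.59e-12), with means of 9.01 in M1 and 11.50 in M0. M2 cells were also lower in Vsir than M0 cells (-0.87, SE 0.07), and M2+10058F4 cells lower than M2 cells (-0.53, SE 0.07, adjusted p = 1.51e-04). Ildr2 was the remaining call for M1 against M0 (0.29, SE 0.12, adjusted p = 0.0447). Nutlin-3a against M2 gave 0 calls among the 5 by limma, with 1 at an unadjusted p under 0.05.

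Cd274 was higher under both stimuli, and more so in M1. Its log2 values were 13.15, 13.18 and 13.16 in M1, 11.39, 11.23 and 11.30 in M2+nutlin-3a, 11.02, 11.00 and 11.06 in M2+10058F4, 11.02, 10.93 and 10.91 in M2, and 9.38, 9.17 and 9.39 in M0. M1 arrays were all highest and M0 arrays all lowest, and among the M2 groups only M2+10058F4 and M2 overlapped. The level was 14.4-fold higher in M1 than in M0 (3.85, SE 0.07, adjusted p = 1.25e-14), 3.12-fold higher in M2 than in M0 (1.64, SE 0.07, adjusted p = 7.59e-10) and 4.62-fold higher in M1 than in M2 (2.21, SE 0.07, adjusted p = 2.03e-12). With nutlin-3a the level was 1.28-fold above M2 (0.35, SE 0.07, adjusted p = 0.00345), while 10058F4 gave 0.07 (SE 0.07, adjusted p = 0.541). M2+nutlin-3a was 1.22-fold above M2+10058F4 (0.28, SE 0.07, adjusted p = 0.0215), a call lost on leaving out any of the 6 arrays but M2+nutlin-3a replicate 2, with adjusted p between 0.052 and 0.0909.

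Pdcd1lg2, its neighbour, had the opposite order of the stimuli. It had log2 values of 7.11, 6.90 and 6.99 in M1, 9.36, 9.03 and 9.19 in M2+nutlin-3a, 8.96, 8.95 and 9.11 in M2+10058F4, 9.38, 9.32 and 9.48 in M2, and 4.42, 4.44 and 4.39 in M0. M0 arrays lay between 0.0079 and 0.10 above the array's 40th percentile, so the M0 level is near the filter and folds from it are not exact sizes. Against M0, M2 cells were 31.4-fold higher (4.97, SE 0.09, adjusted p = 8.87e-14) and M1 cells 6.0-fold higher (2.58, SE 0.09, adjusted p = 5.13e-12). M1 cells were 5.24-fold lower than M2 cells (-2.39, SE 0.09, adjusted p = 9.33e-12), with no overlap. M2+10058F4 cells were 1.30-fold lower than M2 cells (-0.38, SE 0.09, adjusted p = 0.00574), with no overlap either, and nutlin-3a gave -0.19 (SE 0.09, adjusted p = 0.151). The agents did not differ by a call from each other (0.19, SE 0.09, adjusted p = 0.256).

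Dendritic cells also carry Cd86 and Pdcd1lg2, so their markers are given beside these genes. The summed linear level of the list was 429 to 527 in M1, 593 to 687 in M2+nutlin-3a, 550 to 611 in M2+10058F4, 1010 to 1266 in M2 and 286 to 317 in M0. Batf3, a transcription factor of dendritic cells, was the gene that moved most between M2 and M0, with means of 9.90 in M2 and 6.99 in M0, and it was lower than in M2 with either agent (8.89 with nutlin-3a and 8.59 with 10058F4). Ccr7 and Xcr1 were above the percentile only in M1 (5.41 and 6.05). Of the 7 tested markers, Batf3 alone was called in M2 against M0 and with each agent against M2. The part of these markers in the results was not tested.

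Among 21 genes known to control the PD-1 ligands, 19 were tested, and 10 were higher and 6 lower in M1 than in M0 (median 0.26, against -0.0048 for all tested genes). Of all tested genes, 33.6% were called higher and 39.1% lower there. Irf1, the transcription factor that binds the PD-L1 promoter downstream of interferon-gamma, rose by 2.80 (SE 0.08, adjusted p = 1.06e-12). Jak2, the kinase of the interferon-gamma receptor, rose by 2.20 (SE 0.07) and Stat3 by 1.81 (SE 0.07), and the receptor chain Ifngr1 fell by 1.5 (SE 0.06). In M2 against M0, 6 were higher and 5 lower (median 0.045, against -0.0037), led by Jak2 (1.78, SE 0.07), Irf1 (1.10, SE 0.08) and Myc (0.84, SE 0.15) upward and Irf9 downward (-0.72, SE 0.11).

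Genes of that control list were called with both agents. With nutlin-3a 3 of the 19 were higher and 4 lower than in M2 (median -0.090, against 0.0085 for all tested genes), where Myc was lower (-0.96, SE 0.15, adjusted p = 7.87e-04) and Il4ra, the IL4 receptor chain, higher (0.53, SE 0.06). With 10058F4 6 were higher and 5 lower (median -0.018, against -0.00039). Ifngr1 was 1.40 higher (SE 0.06, adjusted p = 1.34e-09) and Irf1 was lower (-0.99, SE 0.08, adjusted p = 1.04e-06), and Spop, an adaptor of the ligase that degrades PD-L1, was higher (0.55, SE 0.07). Cd274 itself gave no call with 10058F4.

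Cd40, the receptor for CD40 ligand, placed all 5 groups apart. It had log2 values of 11.71, 11.68 and 11.92 in M1, 8.10, 8.03 and 8.01 in M2+nutlin-3a, 7.56, 7.47 and 7.42 in M2+10058F4, 8.86, 8.78 and 8.64 in M2, and 7.31, 7.30 and 7.13 in M0. In the order M1, M2, M2+nutlin-3a, M2+10058F4 and M0, no array of a group overlapped the next group. The level was 23.0-fold higher in M1 than in M0 (4.52, SE 0.08, adjusted p = 1.25e-14), 2.85-fold higher in M2 than in M0 (1.51, SE 0.08, adjusted p = 1.03e-08) and 8.07-fold higher in M1 than in M2 (3.01, SE 0.08, adjusted p = 6.34e-13). Larger differences came from the other Cd40 probe sets. They were 5.06 and 5.28 for M1 against M0, 1.85 and 1.89 for M2 against M0, and 3.21 and 3.38 for M1 against M2.

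No group is labelled as given the vehicle alone, so agent and vehicle cannot be told apart here. Cd40 was lower than in M2 with both agents. It was 1.64-fold lower with nutlin-3a (-0.71, SE 0.08, adjusted p = 6.16e-05) and 2.42-fold lower with 10058F4 (-1.27, SE 0.08, adjusted p = 1.34e-07), and M2+nutlin-3a was 1.47-fold above M2+10058F4 (0.56, SE 0.08, adjusted p = 6.15e-04). The other Cd40 probe sets gave the same calls, with -0.82 and -0.86 for nutlin-3a and -1.46 and -1.41 for 10058F4. The probe sets of a gene read the same RNA and are not replicates.

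The CD40 signalling list held 11 tested genes of 12. Of all tested genes, 33.6% were called higher and 39.1% lower in M1 against M0. In M1 against M0, 10 were higher and 0 lower (median 1.28), among them Traf1 (3.67, SE 0.11, adjusted p = 1.66e-12), an adaptor that binds CD40, the NF-kappa-B inhibitor Tnfaip3 (2.36, SE 0.10), Traf2 (1.79, SE 0.11) and Birc3 (1.74, SE 0.08). In M2 against M0, 3 were higher and 0 lower (median 0.056): Traf5 (1.32, SE 0.10), Tnfaip3 (0.48, SE 0.10) and Nfkb2 (0.24, SE 0.08). Relb and Nfkb2, the subunits of the alternative NF-kappa-B pathway that CD40 can activate, were lower with 10058F4 than in M2, with -1.03 (SE 0.06, adjusted p = 3.46e-08) and -0.67 (SE 0.08, adjusted p = 2.7e-05). Relb was also lower with nutlin-3a (-0.31, SE 0.06, adjusted p = 0.00204), while Birc3 (0.36, SE 0.08) and Traf6 (0.34, SE 0.08) were higher. With 10058F4, Birc3 (0.51, SE 0.08) and Traf6 (0.38, SE 0.08) were higher, so 2 of the list were higher and 3 lower (median -0.14), against 2 higher and 1 lower with nutlin-3a (median -0.084).

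Among other TNF family costimulators 13 of 18 were tested. In M1 against M0, 7 were higher and 1 lower (median 0.27), where 33.6% and 39.1% of all tested genes were, led by Tnfsf9, the ligand of the T cell receptor 4-1BB (3.01, SE 0.23, adjusted p = 3.76e-08), Tnfrsf14 (1.7, SE 0.11), the OX40 ligand gene Tnfsf4 (0.94, SE 0.16) and Tnfrsf25 (0.63, SE 0.10). In M2 against M0, 0 were higher and 1 lower, the B cell survival factor Tnfsf13b (-0.78, SE 0.25, adjusted p = 0.0289). Against M2, limma called 0 of the 13 with nutlin-3a and 0 with 10058F4, and 1 and 2 had an unadjusted p under 0.05.

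**Figure D4:**
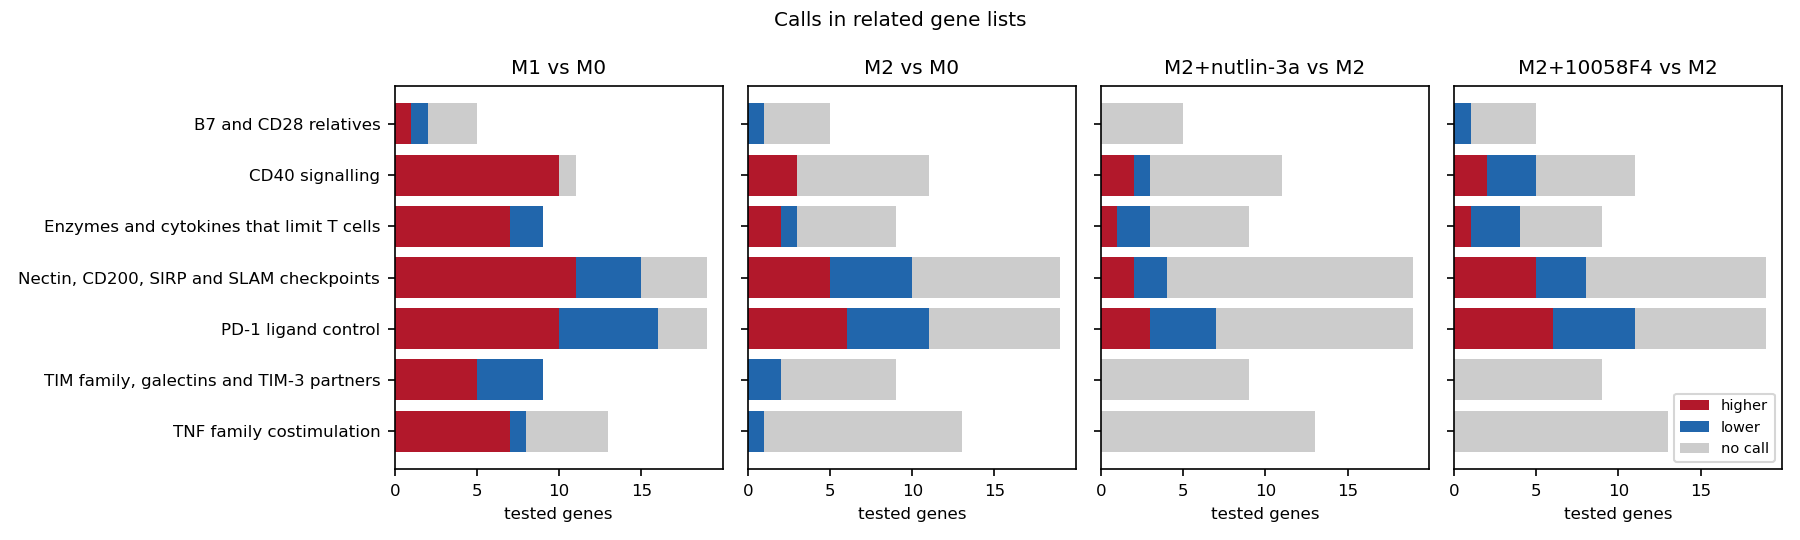
Number of tested genes called higher (red), called lower (blue) and not called (grey) in 7 related gene lists, for M1 against M0, M2 against M0 and each agent against M2. For M1 against M0 the CD40 signalling list has 10 of 11 genes called higher, and for both agents the TNF family and TIM lists have no called gene.

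Cd28, best known as the costimulatory receptor of T cells, was high in every group but M1. Its log2 values were 3.25, 2.97 and 3.01 in M1, 8.87, 9.17 and 8.91 in M2+nutlin-3a, 8.06, 8.33 and 8.06 in M2+10058F4, 8.63, 8.82 and 8.64 in M2, and 9.56, 9.70 and 9.34 in M0. All 3 M1 arrays were below the 40th percentile and the other 12 arrays above it, and no array of a group overlapped the next group in order. Because the M1 level is only bounded, M1 was at least 32.9-fold lower than M0 and at least 18.4-fold lower than M2 (adjusted p = 1.25e-14 and 5.14e-14 for the measured differences, of -6.46 and -5.62). These bounds set the mean of the 40th percentile values of the M1 arrays in place of their Cd28 values, and the other Cd28 probe set gives bounds of 26.7-fold and 14.5-fold.

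Smaller Cd28 differences stood among the other groups. M2 was 1.79-fold lower than M0 (-0.84, SE 0.12, adjusted p = 8.26e-05), and M2+10058F4 was 1.46-fold lower than M2 (-0.54, SE 0.12, adjusted p = 0.00403), which the other probe set did not call (-0.47, SE 0.17, adjusted p = 0.0671). M2+nutlin-3a was 1.78-fold above M2+10058F4 (0.83, SE 0.12, adjusted p = 4.17e-04). Nutlin-3a against M2 gave 0.29 (SE 0.12, adjusted p = 0.117), no call, although those arrays did not overlap.

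T cell markers were measured beside Cd28. Their summed linear level was 541 to 633 in M1, 500 to 581 in M2+nutlin-3a, 555 to 580 in M2+10058F4, 559 to 661 in M2 and 467 to 565 in M0. Zap70 had the highest mean of the list in every group (8.16 in M1, 8.36 in M2 and 7.98 in M0) and weighs most in that sum. Cd3e had means of 5.49 in M1 and 5.05 in M0, and the Cd3g mean was 3.34 in M1 and 3.06 in M0. Of 6 tested T cell markers, 4 were higher and 1 lower in M1 than in M0, where 33.6% and 39.1% of all tested genes were. Whether the Cd28 probe sets also read other transcripts was not tested, and both gave the same order of group means. Ctla4, the coding gene next to Cd28 on chromosome 1, was not tested for low values.

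Havcr2 was highest with 10058F4. It had log2 values of 5.43, 5.93 and 5.13 in M1, 8.48, 8.82 and 8.70 in M2+nutlin-3a, 9.38, 9.45 and 9.21 in M2+10058F4, 7.01, 7.53 and 7.32 in M2, and 6.68, 7.17 and 6.69 in M0. The M2+10058F4 and M2+nutlin-3a arrays stood above all others and apart from each other, M2 and M0 overlapped, and M1 stood below. The level was 4.17-fold higher with 10058F4 than in M2 (2.06, SE 0.19, adjusted p = 4.29e-06) and 2.60-fold higher with nutlin-3a than in M2 (1.38, SE 0.19, adjusted p = 3.07e-04). Those comparisons share the M2 arrays. M2+nutlin-3a was 1.60-fold lower than M2+10058F4 (-0.68, SE 0.19, adjusted p = 0.0483), close to the threshold, and leaving out any 1 of those 6 arrays ended that call, with adjusted p between 0.0768 and 0.157.

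Polarization moved Havcr2 down in M1. M1 was 2.55-fold lower than M0 (-1.35, SE 0.19, adjusted p = 2e-05) and 3.45-fold lower than M2 (-1.79, SE 0.19, adjusted p = 1.18e-06). M2 against M0 gave 0.44 (SE 0.19, adjusted p = 0.101), and the same difference was called with the replicate number as a block (SE 0.12, adjusted p = 0.0168). Without M0 replicate 2 that difference was 0.60 (adjusted p = 0.0427).

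Lgals9, which encodes galectin-9, was highest in M1. It had log2 values of 10.57, 10.51 and 10.65 in M1, 7.93, 7.87 and 7.79 in M2+nutlin-3a, 7.71, 7.64 and 7.55 in M2+10058F4, 7.97, 7.71 and 7.63 in M2, and 8.54, 8.57 and 8.42 in M0. M1 stood above M0, M0 stood above the M2 groups, and M2 overlapped both groups given an agent. The level was 4.20-fold higher in M1 than in M0 (2.07, SE 0.09, adjusted p = 4.43e-11) and 1.66-fold lower in M2 than in M0 (-0.73, SE 0.09, adjusted p = 1.84e-05). M1 was 6.98-fold higher than M2 (2.80, SE 0.09, adjusted p = 1.79e-12). Nutlin-3a gave 0.09 (adjusted p = 0.541) and 10058F4 -0.14 (adjusted p = 0.299) against M2. The receptor and its proposed ligand stood on opposite sides in M1, with Havcr2 lower and Lgals9 higher than in M0.

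The list of TIM family genes, other galectins and TIM-3 partners had 9 tested genes. In M1 against M0, 5 were higher and 4 lower (median 0.31), where 33.6% and 39.1% of all tested genes were. Timd4, the TIM family receptor for phosphatidylserine, had means of 8.51 in M1 and 4.11 in M0 (4.39, SE 0.47, adjusted p = 1.05e-06). Its means in M0 and M2 lay under the percentile, so this call may be partly set by passing the filter through M1. Ceacam1, a proposed TIM-3 partner, was lower (-2.36, SE 0.14, adjusted p = 2.32e-09), as were the galectin genes Lgals1 (-0.87, SE 0.10) and Lgals3 (-0.54, SE 0.08). In M2 against M0, Ceacam1 (-0.98, SE 0.14) and Bag6 (-0.25, SE 0.09) were lower and none was higher. Neither agent gave a call among the 9 by limma, and 0 had an unadjusted p under 0.05 with either.

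Nutlin-3a against M2 gave calls for 4 of the 10 genes, Cd80, Cd274 and Havcr2 higher and Cd40 lower, where 15.4% of all tested genes were called, 9.56% higher and 5.85% lower. Repeated quantile normalization moved that split to 8.07% and 7.57%, and centring the arrays on their median moved it to 11.6% and 4.21%, with the same 4 members called. The 2 that passed 2-fold were Cd80 and Havcr2, both higher. Of all tested genes 1.07% passed 2-fold, 0.547% higher and 0.518% lower. Arrays did not overlap for 5 of the 10 (38.9% of all tested genes), the fifth being Cd28. Median size was 0.28 over the 10 genes and 0.13 over all.

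10058F4 against M2 gave calls for 5 of the 10, Havcr2 higher and Cd40, Cd28, Cd276 and Pdcd1lg2 lower, where 20.9% of all tested genes were called, 10.6% higher and 10.2% lower. Havcr2 and Cd40 passed 2-fold, which 0.890% of all tested genes did upward and 0.788% downward. Arrays did not overlap for 5 of the 10 (44.2% of all tested genes), and median size was 0.29 over the 10 genes and 0.14 over all. Cd80, Cd86, Icosl, Cd274 and Lgals9 gave no call.

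Set directly against each other, M2+nutlin-3a and M2+10058F4 gave calls for 5 of the 10 genes, where 6.96% of all tested genes were called, 4.24% higher and 2.72% lower with nutlin-3a (3.55% and 3.44% after repeated quantile normalization). Cd80, Cd28, Cd40 and Cd274 were higher with nutlin-3a and Havcr2 was lower. Of these, Cd80 alone passed 2-fold, which 0.489% of all tested genes did upward and 1.00% in either direction, and for 6 of the 10 the arrays did not overlap (32.0% of all tested genes). Leaving out any of the 6 arrays but M2+nutlin-3a replicate 2 left 3 calls, and leaving out that array left 4. Cd40 was lower than M2 with both agents and Havcr2 higher than M2 with both. For each, the groups given an agent also differed from one another as stated above. Without a group labelled as vehicle alone, agent and vehicle cannot be told apart in these shared differences.

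Further surface molecules of the macrophage and T cell contact, of the nectin, CD200, SIRP and SLAM families, had 19 tested genes of 22. Of all tested genes, 33.6% were called higher and 39.1% lower in M1 than in M0. In M1 against M0, 11 were higher and 4 lower (median 0.37), led by Cd24a, the ligand of Siglec-10 in humans (-3.76, SE 0.25), and the SLAM family receptors Slamf1 (3.15, SE 0.27), Slamf6 (2.56, SE 0.11) and Slamf7 (2.52, SE 0.09). In M2 against M0, 5 were higher and 5 lower (median 0.11), with Slamf6 higher (1.32, SE 0.11) and Cd24a (-1.29, SE 0.25), Cd200 (-1.22, SE 0.17) and Slamf7 (-0.65, SE 0.09) lower. Slamf6 was lower than in M2 with nutlin-3a (-0.58, SE 0.11, adjusted p = 0.00255) and with 10058F4 (-0.87, SE 0.11, adjusted p = 5.75e-05). The PVR relative Nectin2 was lower with both as well (-0.32, SE 0.10, with nutlin-3a and -0.62, SE 0.10, with 10058F4). In all, 2 were higher and 2 lower with nutlin-3a (median -0.0060), and 5 higher and 3 lower with 10058F4 (median 0.16).

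Of the enzymes and cytokines that limit T cells, 9 of 11 genes were tested. All 9 were called in M1 against M0, 7 higher and 2 lower (median 2.91), where 72.7% of all tested genes were called. Ptgs2, the inducible prostaglandin synthase, differed by 8.58 (SE 0.17), Nos2, the coding gene next to Lgals9 on chromosome 11, by 3.63 (SE 0.09), Ido1 by 3.33 (SE 0.22) and Ptges by 3.04 (SE 0.21). In M2 against M0, Arg1, the arginine-degrading enzyme of M2 cells, differed by 6.81 (SE 0.66), with Ptgs2 higher (0.87, SE 0.17) and the ATP-degrading enzyme Entpd1 lower (-0.59, SE 0.12). Il10 was lower than in M2 with nutlin-3a (-0.77, SE 0.12, adjusted p = 7.58e-04) and with 10058F4 (-0.89, SE 0.12, adjusted p = 1.21e-04). Tgfb1 was lower with both (-0.46, SE 0.09, in each), and Entpd1 higher (0.45 with nutlin-3a and 0.42 with 10058F4, SE 0.12 each), so 1 was higher with each agent and 2 were lower with nutlin-3a and 3 with 10058F4, where Ptgs2 was the third (-0.97, SE 0.17).

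Genes whose pattern over the 15 arrays was most like that of the 4 members with the widest spans were sought among 12917 others, as a description without a test, since arrays of a group share their treatment. Tmem205, Mef2a and Abhd14b were most like Cd28, with Pearson r of 0.997, 0.996 and 0.996. The transcription factor Nfil3 (r = 0.971), Ier3 (0.977) and Kmt5a (0.972) were most like Pdcd1lg2. For Cd86 they were Zfp36, which encodes an RNA-binding protein that shortens cytokine messages (0.987), Mtmr7 (0.981) and Gdap10 (0.971). For Cd40 they were the elongation factor gene Ell2 (0.995), the chemokine gene Ccl8 (0.990) and Ttc9c (0.986). Among the 10 genes themselves, the closest pair was Cd86 and Cd274 (r = 0.985) and the most opposed was Cd40 and Cd28 (r = -0.942), both over the same 15 arrays.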

How the data were processed

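Total RNA from macrophages was read on 15 one-colour arrays, 3 in each of 5 groups taken from the sample titles. The deposited file holds 1 log2 value for each probe set and array. Per the submitters' processing notes, RMA was the authors' method. The base of the logarithm was read from the range of the values, and the sources used here give no version of RMA. RMA brings the arrays toward a common distribution, so a change that most genes share may be masked. The deposited columns were close to each other but not equal, with 40th percentiles of 4.34 to 4.52.

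Of 45101 probe sets, 64 of them controls, the platform annotation named 1 gene for 34945, more than 1 for 932 and none for the 9160 left unnamed. The RefSeq table of GRCm38.p6 held 34741 of the gene IDs and was used for symbols and neighbours. Of the probe sets naming a gene alone, the one highest on average over 15 arrays stood for it. Genes had to exceed the 40th percentile on 3 or more arrays to be tested, which kept 13703 of 18193 genes.

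Comparisons were contrasts between the 5 group means in 1 limma fit to the 15 arrays (lmFit, eBayes; 10 residual degrees of freedom, 3.86 prior), with Benjamini-Hochberg adjustment over all tested genes of a comparison. The script was tested on simulated data. The 10 members and the lists (159 genes, 144 measured, 120 tested, none in several lists) were chosen with earlier results of these data known. All members were named in every comparison, with up to 4 called genes of each pathway list with the largest difference (those of smallest p, for a list with under 2 calls), and the 3 most correlated genes of the 4 members with the widest range.

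All groups use replicate numbers 1 to 3, and the titles do not say what a number stands for. Pairing was therefore checked by correlating the deviations of same-numbered arrays from their group means. The r was 0.232 to 0.424 in M2 against M0, 0.337 to 0.381 in M2+nutlin-3a against M2, 0.308 to 0.368 in M2+10058F4 against M2 and 0.341 to 0.408 between the agents, above the pairing limit of 0.1 each time. In M1 against M0 (0.055 to 0.263) and M1 against M2 (0.063 to 0.148) some pairs fell short of it. In every comparison, those of M1 included, each array still correlated best with the same-numbered array of the other group. The main fit leaves the number out, and results with it as a block are given below. Software was limma 3.58.1 in R 4.3.3, and pandas 2.3.3 and matplotlib 3.10.9 in Python 3.11.15.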

Additional observations from a re-analysis of the deposited data

How the results depend on the processing

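Of 948 planned recalculations of single member differences, 918 kept direction and side of the threshold, 18 lost the call, 6 gained one and 6 changed sign, none of these called. The alternatives were a stricter filter and none, the mean of all probe sets of a gene or only those specific by suffix, repeated quantile normalization, centring, array weights, the 6 arrays alone, each array left out, the replicate block and a robust eBayes with a trend. Other probe sets were added after seeing the data. The cause of a change was not tested.

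Signs changed for Cd80 in M1 against M0 (0.14 with the mean of its probe sets, 0.36 with another probe set), Cd80 with 10058F4 against M2 (0.035 with another probe set), Cd86 with 10058F4 against M2 (-0.099 with the mean, -0.26 with the other probe set, -0.040 without M2 replicate 3, -0.034 without M2+10058F4 replicate 1, with a range of -0.040 to 0.15 over arrays left out), Cd86 with nutlin-3a against M2 (0.0016 without M2 replicate 1, with a range of -0.18 to 0.0016) and Icosl with nutlin-3a against M2 (0.052 with the mean). Calls changed for Cd80 in M1 against M0, called after centring (adjusted p = 0.0314) and on leaving out M1 replicate 3 (0.0262) or M0 replicate 3 (0.0352), for Havcr2 in M2 against M0 with array weights (0.0409), and for Havcr2 between the agents, lost after centring (0.0615), with no filter (0.057) and with the robust eBayes (0.0541).

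Members called between M2+nutlin-3a and M2+10058F4 were 5, and 3 to 4 when an array was left out. With the replicate block 8 members were called for M2 against M0, against 7 without it, and 9, 10, 4, 5 and 5 in the other comparisons. Havcr2 in M2 against M0 (adjusted p = 0.0168) was thus the only member call the pairing changed. Of all tested genes, the block fit called 33.9% in M2 against M0, where the main fit called 31.0%. In the other comparisons it called 74.4%, 66.5%, 18.6%, 23.7% and 8.99%, in the same order. Over all tested genes, array weights called 24.1% with nutlin-3a against M2 (15.4% without), 31.5% with 10058F4 against M2 (20.9%) and 14.9% between the agents (6.96%), and the 6 arrays alone 10.8% there. Leaving out any of the 6 arrays compared lowered these shares. For nutlin-3a against M2 the share fell to between 9.07% (without M2 replicate 1) and 11.3%. Between the agents it fell to between 4.14% (without M2+10058F4 replicate 1) and 5.27% (without M2+nutlin-3a replicate 1).

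With 3 arrays per group, differences near the threshold are not settled in either direction. Levels near or under the array's 40th percentile, as of Cd28 in M1 and Pdcd1lg2 in M0, are bounds or near bounds. Only 8 members have a probe set kept by the suffix rule, Cd40 and Lgals9 having none. The rule dropped the suffix letters s, x, a, f, i and r, and so also the Cd80 probe set used. Being dropped does not show that a probe set reads other genes.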
